A study of Mus with 35 samples.

Results

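The transportins are nuclear import receptors, and 3 genes of the mouse carry the name: Tnpo1, Tnpo2 and Tnpo3. Their rows were found by symbol in a table of 55573 rows of gene expression, where each symbol occurred once, and all 3 genes passed the filter of a mean of 1 TPM that preceded every test. They were followed in 35 brain RNA libraries of male C57BL/6J mice of which the mutants carried a P209L or an R206W substitution in Hnrnph2 and the others were wild-type (WT) littermates. Males have 1 X chromosome, so the substituted Hnrnph2 on it was their only copy.

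Transportins belong to the importin beta family, whose members bind a cargo in the cytoplasm, carry it through the nuclear pore and let it go when the GTP form of the small GTPase Ran binds to them in the nucleus. Transportin 1 (Tnpo1) and the closely related transportin 2 (Tnpo2) recognise a signal ending in proline and tyrosine, the PY-NLS, which is found in many RNA-binding proteins such as hnRNP A1 and the hnRNP H proteins. Transportin 3 (Tnpo3) carries mainly serine and arginine rich splicing factors. The P209L and R206W substitutions lie in the PY-NLS of hnRNP H2, the protein that Hnrnph2 encodes, so the question asked here is what the mRNA of its receptors did in these brains.

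Each mouse had received 1 injection of 30 µg of an antisense oligonucleotide (ASO) into the brain ventricles at postnatal day 2 to 4. There were 3 cohorts, a P209L cohort collected at 8 weeks, a P209L cohort collected at 3 weeks and an R206W cohort collected at 3 weeks. Within each cohort the groups were mutants with an ASO directed at Hnrnph2, mutants with a control ASO, WT with the Hnrnph2 ASO and WT with the control ASO. Groups held 3 libraries each, and only 2 were at hand for P209L mice treated with the Hnrnph2 ASO and collected at 3 weeks. Whether every library is a separate animal is not stated, so p-values measure the spread between these libraries. Per the labels the samples were whole brain in one field and dissected cortex in another, and the summed level of 5 cerebellar granule cell markers, with none of them at 0, was 269 to 788 TPM over the libraries, so the tissue held cerebellum. Markers of neurons, astrocytes, oligodendrocytes, microglia and endothelial cells were likewise detected in every group.

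Levels are in TPM, a measure that scales every library to the same total and divides reads by transcript length, so that levels can be set side by side between genes. TPM keeps no read totals, so the depth of a library is unknown and counting error cannot be given. The target of the ASO followed the labels: Hnrnph2 was at 6.95 to 23.9 TPM in mutants with the Hnrnph2 ASO, against 94.9 to 110.5 TPM in mutants with the control ASO. In WT it was at 11.96 to 26.7 TPM with the Hnrnph2 ASO, against 88.2 to 116.8 TPM with the control ASO. Because whole tissue was measured, fewer cells of a type and less RNA per cell cannot be told apart in any value below.

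Tnpo2 was the most abundant of the 3 receptors, Tnpo3 came next and Tnpo1 was lowest, and this order of TPM levels held in 35 of 35 libraries. Tnpo2 (chromosome 8, 85036873 to 85057585, mm10) was at 97.7 to 130.8 TPM in the 9 mutant libraries with the control ASO, against 52.3 to 75.3 TPM in the 26 other libraries, with no overlap between them. The share of all genes that stood apart in this way was not counted. Tnpo3 (chromosome 6, 29540827 to 29609858) lay between 42.0 and 49.6 TPM in all 35 libraries. Tnpo1 (chromosome 13, 98839019 to 98926384) lay between 15.02 and 26.6 TPM. Relative to their means over the 35 libraries, the levels of Tnpo3 varied least, with a coefficient of variation of 4.34%, and those of Tnpo1 by 13.3%. Tnpo2 varied by 8.26% over the 26 libraries other than mutants with the control ASO, and by 28.6% over all 35.

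**Figure D1:**
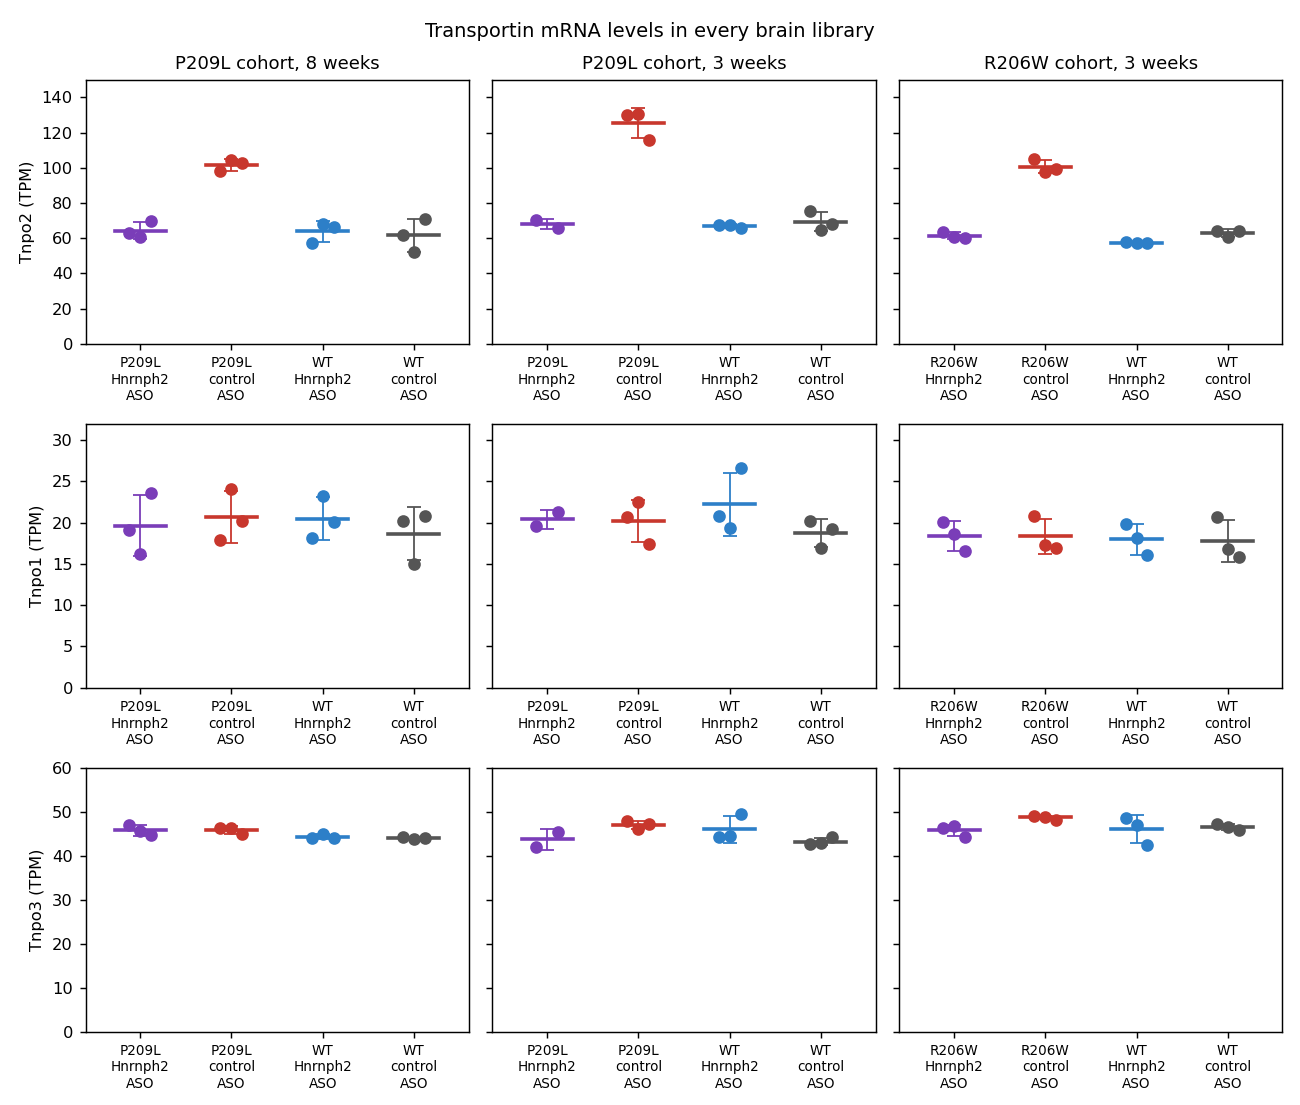
TPM of Tnpo2, Tnpo1 and Tnpo3 in every library, by cohort (columns) and by genotype and ASO (x axis). Each point is 1 library, the thick bar the group mean and the thin bar 1 SD; Tnpo2 stands at 97.7 to 130.8 TPM in mutants with the control ASO and at 52.3 to 75.3 TPM elsewhere, while the groups of Tnpo1 lie within 15.02 to 26.6 TPM and those of Tnpo3 within 42.0 to 49.6 TPM.

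In the P209L cohort at 8 weeks with the control ASO, Tnpo2 was at 98.04, 104 and 103 TPM in P209L mice, against 61.5, 52.3 and 71.0 TPM in WT mice. The P209L libraries lay close together and above all WT libraries, whose SD (9.33 TPM, mean 61.6, n = 3) was the widest of any Tnpo2 group. The P209L mean was 65.2% above the WT mean. On the scale of log2(TPM + 1), Tnpo2 rose by 0.73 (SE 0.11, 1.65-fold, limma adjusted p = 0.026), in a comparison in which 0.163% of the 16516 genes tested were called higher. A gene was called when its p, adjusted by the Benjamini-Hochberg method over all genes tested, was under 0.05. The call was lost when the other 2 groups of the cohort were left out of the fit (adjusted p = 0.328), when genes of low level were kept (adjusted p = 0.0778), and when any 1 of the 5 compared libraries other than the third WT library was left out (adjusted p from 0.0874 to 0.144, log2 difference 0.62 to 0.75). Without the third WT library the difference was 0.83 (adjusted p = 0.00811).

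At 3 weeks in the P209L cohort, Tnpo2 was at 129.9, 130.8 and 115.9 TPM in P209L mice with the control ASO, against 75.3, 64.9 and 67.9 TPM in WT mice with the control ASO. The groups stood apart by more than 40 TPM, and the P209L group was the highest of all 12 for this gene. Tnpo2 rose by 0.85 on the log2 scale (SE 0.070, 1.80-fold, limma adjusted p = 0.000511), where 0.133% of genes were called higher, and it remained called without any 1 library (adjusted p at most 0.00583).

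In the R206W cohort at 3 weeks, Tnpo2 was at 104.7, 97.7 and 99.2 TPM in R206W mice with the control ASO, against 64.2, 60.5 and 63.9 TPM in WT mice with the control ASO. Here the spread within each group was small (SD 3.67 TPM in R206W and 2.06 TPM in WT, n = 3 each) beside the 37.7 TPM between their means. The log2 difference was 0.67 (SE 0.049, 1.59-fold, limma adjusted p = 0.000137), where 0.127% of genes were called higher, and no library left out ended the call (adjusted p at most 0.00136).

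Averaged over the 3 cohorts with equal weight, Tnpo2 was 1.68-fold higher in mutants than in WT under the control ASO (log2 difference 0.75, 95% interval 0.65 to 0.84, limma adjusted p = 6.97e-12). It ranked 6 by p among 16556 genes, of which 2.55% were called higher. Tnpo2 was higher in 9 of 9 mutant libraries than in every WT library of its cohort. Of all genes, 0.991% were higher without overlap in all 3 cohorts. An exact permutation test with labels exchanged within cohort gave p = 0.00025, the smallest that this design allows. A contrast of the P209L effect at 8 weeks with that at 3 weeks gave a difference of -0.12 for Tnpo2 (95% interval -0.35 to 0.11). P209L minus R206W at 3 weeks gave 0.18 (95% interval -0.05 to 0.41). Neither difference was called (adjusted p = 0.999 and 1, limma), where none of the 16556 genes was called and 515 and 392 had an unadjusted p under 0.05. Both intervals hold 0 and also differences up to their ends, so differences of those sizes were not excluded.

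Cell type markers also differed between these groups. Under the control ASO, 3 of 5 cerebellar granule cell markers were called lower in mutants in the average (median log2 difference -0.32), where 1.73% of all genes were called lower. Their summed level was 374 to 439 TPM in P209L against 371 to 496 TPM in WT at 8 weeks, 371 to 430 against 447 to 493 TPM in the P209L cohort at 3 weeks, and 447 to 535 TPM in R206W against 568 to 788 TPM in WT. With these markers as a covariate, the average Tnpo2 difference was 0.73 (limma adjusted p = 6.64e-09). Of 7 markers of myelinating oligodendrocytes, 4 were called lower (median -0.23), with summed levels of 5080 to 6010 TPM in P209L against 5560 to 7240 TPM in WT at 8 weeks, 11900 to 12500 against 13000 to 14900 TPM in the P209L cohort at 3 weeks, and 10500 to 13500 TPM in R206W against 12400 to 13100 TPM in WT. Of 4 Purkinje cell markers 1 was called higher (2.55% of genes were) and the median was -0.09, with summed levels of 437 to 504 TPM in P209L against 355 to 536 TPM in WT at 8 weeks, 410 to 491 against 410 to 487 TPM in the P209L cohort at 3 weeks, and 532 to 703 TPM in R206W against 585 to 814 TPM in WT. None of these markers was at 0, and the part of the oligodendrocyte and Purkinje cell markers in the Tnpo2 difference was not tested. No marker on the lists of general neurons, excitatory cortical neurons, interneurons, astrocytes, microglia, endothelial cells or erythrocytes was called in this average.

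Library titles carry a name stem ahead of their last number, which the labels do not explain. Tnpo2 values are given here for stems shared by libraries of both genotypes with the control ASO. Every mutant library with the control ASO lay above every WT library, so the direction within a stem was fixed and is no further evidence. At 8 weeks one such pair had 104 TPM in the P209L library against 52.3 TPM in the WT library. A pair of the P209L cohort at 3 weeks had 130.8 TPM in P209L against 67.9 TPM in WT. In the R206W cohort, 1 stem held R206W libraries at 104.7 and 97.7 TPM and WT libraries at 64.2, 60.5 and 63.9 TPM. No stem occurred with both ASOs, so stem and ASO cannot be told apart in what follows.

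With the Hnrnph2 ASO, Tnpo2 was below its control ASO level in the mutants of each cohort, and the difference was called in P209L and R206W at 3 weeks. At 8 weeks it was at 62.8, 60.5 and 69.8 TPM in P209L mice with the Hnrnph2 ASO, against 98.04, 104 and 103 TPM in P209L mice with the control ASO. The groups did not overlap and the mean fell by 36.8%, but the log2 difference of -0.66 (SE 0.11) had a limma adjusted p of 0.0572 and was not called, in a comparison in which 0.0787% of genes were called lower. That call turned on the fit: it passed with genes of at least 5 TPM (adjusted p = 0.042), with rescaled TPM (adjusted p = 0.0095) and with the 2 compared groups alone (adjusted p = 0.0383).

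At 3 weeks the 2 P209L libraries with the Hnrnph2 ASO had 70.3 and 66.0 TPM of Tnpo2, against 129.9, 130.8 and 115.9 TPM in P209L with the control ASO. The mean fell by 45.7%, with a log2 difference of -0.87 (SE 0.078, limma adjusted p = 0.000992) where 0.0908% of genes were called lower. R206W mice had 63.7, 60.8 and 59.99 TPM with the Hnrnph2 ASO, against 104.7, 97.7 and 99.2 TPM with the control ASO. Their mean fell by 38.8%, with a log2 difference of -0.70 (SE 0.049, limma adjusted p = 8.4e-05) where 0.097% of genes were called lower. The average over the cohorts was -0.74 (95% interval -0.84 to -0.64, limma adjusted p = 3.07e-11), where 1.31% of genes were called lower, and 8 of 8 libraries with the Hnrnph2 ASO were lower than every library with the control ASO. Without overlap in all 3 cohorts, 0.791% of all genes were lower in this comparison. Of the marker lists, 1 of 4 Purkinje cell markers was called lower in it (median -0.01), and 1 of 5 interneuron and 1 of 5 microglia markers were called higher (medians 0.01 and 0.17, with 1.19% of all genes called higher). None of the cerebellar granule cell or myelinating oligodendrocyte markers was called in it (medians -0.05 and 0.01). The part of the called markers in the Tnpo2 difference was not tested.

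In WT mice the same ASO left no called change in Tnpo2. At 8 weeks the levels were 57.0, 68.1 and 66.3 TPM with the Hnrnph2 ASO, against 61.5, 52.3 and 71.0 TPM with the control ASO. In the P209L cohort at 3 weeks they were 67.4, 67.5 and 65.8 TPM with the Hnrnph2 ASO, against 75.3, 64.9 and 67.9 TPM with the control ASO. These groups overlapped. In the R206W cohort they did not: the WT libraries had 57.6, 57.0 and 57.4 TPM with the Hnrnph2 ASO, against 64.2, 60.5 and 63.9 TPM with the control ASO, a log2 difference of -0.13 (SE 0.049, limma adjusted p = 0.665), where 7.99% of genes were lower without overlap. The average over the cohorts was -0.04 (95% interval -0.14 to 0.05), not called, while 0.0966% of genes were called higher and 0.0906% lower.

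The effect of the ASO on Tnpo2 in mutants was therefore set against its effect in WT in 1 contrast. On average the ASO effect was lower by 0.70 log2 units in mutants than in WT (95% interval -0.84 to -0.56, limma adjusted p = 2.56e-07), where 0.284% of genes were called lower. Within cohorts this difference was -0.82 in P209L at 3 weeks (adjusted p = 0.0309, with 0.0363% of genes called lower) and -0.57 in R206W (adjusted p = 0.0287, with 0.0182% called lower). At 8 weeks it was -0.71 (adjusted p = 0.581, with 0.00605% called lower) and did not pass. Leaving out 1 library ended the call in 8 of 11 fits in P209L at 3 weeks (adjusted p up to 0.158) and in 8 of 12 fits in R206W (adjusted p up to 0.135), with differences of -0.88 to -0.78 and -0.59 to -0.54. The average was called in all 35 such fits. Mean Hnrnph2 under its ASO was lower in mutants than in WT of each cohort, and its part in the Tnpo2 difference was not tested.

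With the Hnrnph2 ASO, Tnpo2 was not called between mutants and WT. The means were 64.4 ± 4.82 TPM in P209L and 63.8 ± 5.96 TPM in WT at 8 weeks (SD, n = 3 each), and 68.1 ± 3.03 TPM in P209L (SD, n = 2) and 66.9 ± 0.985 TPM in WT (SD, n = 3) at 3 weeks. In the R206W cohort they were 61.5 ± 1.97 TPM in R206W and 57.3 ± 0.262 TPM in WT (SD, n = 3 each), without overlap, as 5.47% of genes were higher in that cohort. The average log2 difference was 0.05 (95% interval -0.05 to 0.14), not called, where 0.278% of genes were called higher. Treated mutants set against WT with the control ASO gave 0.006 for Tnpo2 (95% interval -0.09 to 0.10), not called, where 2.71% of genes were called higher and 2.12% lower. These contrasts share libraries with those above and are given beside them as values only.

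**Figure D2:**
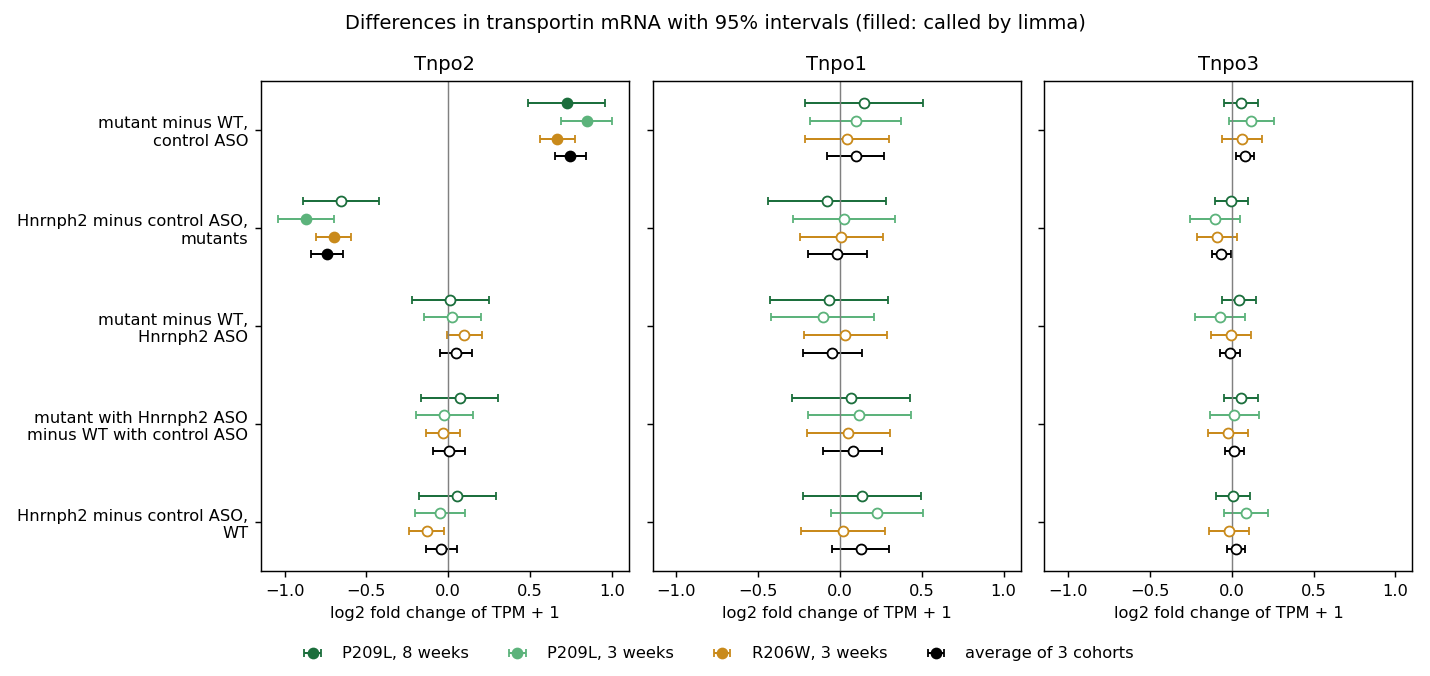
Differences in log2(TPM + 1) for each receptor in 5 comparisons (rows), by cohort and as the average of the cohorts, with 95% intervals from limma; filled points were called. Tnpo2 is at 0.67 to 0.85 for mutants against WT under the control ASO and at -0.87 to -0.66 for the Hnrnph2 ASO in mutants, and no point of Tnpo1 or Tnpo3 is filled.

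Since transportins 1 and 2 share cargoes, the share of Tnpo2 in the sum of both mRNAs was also taken. It averaged 83.1% in P209L against 76.8% in WT at 8 weeks, 86.2% in P209L against 78.7% in WT at 3 weeks, and 84.6% in R206W against 78.0% in WT, all with the control ASO. In mutants with the Hnrnph2 ASO the share averaged 76.7%, 76.9% and 77.0% in the cohorts in the same order. The 9 mutant libraries with the control ASO (81.3% to 87.0%) lay above the 26 others (71.2% to 80.1%). The ratio of Tnpo2 to Tnpo3 TPM was 2.00 to 2.84 in those 9 libraries and 1.19 to 1.76 in the others. Both ratios follow from the Tnpo2 values above and are given without a test.

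Tnpo2 was lower at 8 weeks than at 3 weeks in the mean of the 4 pairs of groups of the P209L cohorts, and 1 of the 4 pairs was called by itself. In P209L mice with the control ASO it averaged 102 TPM at 8 weeks and 126 TPM at 3 weeks, without overlap (log2 difference -0.30, SE 0.079, limma adjusted p = 0.015), where 6.23% of genes were called lower. In WT mice with the control ASO it averaged 61.6 TPM at 8 weeks and 69.4 TPM at 3 weeks, with overlap (-0.18, SE 0.079, limma adjusted p = 0.156), where 8.66% of genes were called lower. With the Hnrnph2 ASO it averaged 64.4 TPM at 8 weeks and 68.1 TPM at 3 weeks in P209L mice (-0.08, SE 0.089, limma adjusted p = 0.579), and 63.8 TPM at 8 weeks and 66.9 TPM at 3 weeks in WT mice (-0.07, SE 0.079, limma adjusted p = 0.626). The mean over the 4 pairs of groups was -0.16 (SE 0.041, adjusted p = 0.00292), in a comparison in which 26.6% of genes were called lower. Tnpo1 (-0.04) and Tnpo3 (0.00) were not called. Age and cohort cannot be told apart, and the summed oligodendrocyte markers also moved with them (5080 to 7240 TPM at 8 weeks and 11100 to 14900 TPM at 3 weeks). The P209L difference under the control ASO lost its call without any of 3 libraries, the first at 8 weeks and the first or second at 3 weeks (adjusted p = 0.0649, 0.079 and 0.0752). The WT difference was called without the third 8-week library (-0.28, adjusted p = 0.0121).

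Tnpo1, the closest relative of Tnpo2, was not called in any comparison. With the control ASO it was at 17.9, 24.1 and 20.2 TPM in P209L mice against 20.2, 15.02 and 20.8 TPM in WT mice at 8 weeks. At 3 weeks it was at 20.7, 22.5 and 17.4 TPM in P209L against 20.2, 16.9 and 19.2 TPM in WT, and at 20.8, 17.3 and 17.0 TPM in R206W against 20.6, 16.8 and 15.9 TPM in WT. The groups overlapped in each cohort, and when the 12 groups were ordered by mean, each overlapped with the next. The average difference was 0.10 (95% interval -0.08 to 0.27, limma adjusted p = 0.608). That interval holds both 0 and a small rise of Tnpo1 mRNA, while a rise as large as the 0.75 of Tnpo2 lay outside it.

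With the Hnrnph2 ASO, Tnpo1 was at 19.1, 16.2 and 23.6 TPM in P209L mice at 8 weeks, at 19.6 and 21.2 TPM in P209L mice at 3 weeks, and at 20.1, 18.6 and 16.5 TPM in R206W mice. The average ASO difference in mutants was -0.02 (95% interval -0.20 to 0.17, limma adjusted p = 0.966). WT mice with the Hnrnph2 ASO had 18.1, 23.3 and 20.1 TPM at 8 weeks, 20.9, 19.3 and 26.6 TPM in the P209L cohort at 3 weeks, and 19.8, 18.1 and 16.1 TPM in the R206W cohort. That ASO difference averaged 0.13 (95% interval -0.05 to 0.30, limma adjusted p = 0.662), and the groups overlapped in each cohort.

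Tnpo3, the receptor of serine and arginine rich proteins, was slightly higher in mutants with the control ASO in each cohort, without a call. It was at 46.4, 46.2 and 44.9 TPM in P209L against 44.2, 43.8 and 44.1 TPM in WT at 8 weeks. At 3 weeks it was at 47.8, 46.0 and 47.2 TPM in P209L against 42.7, 42.8 and 44.1 TPM in WT, and at 49.0, 48.9 and 48.2 TPM in R206W against 47.3, 46.4 and 45.9 TPM in WT. Groups did not overlap in any of the 3 cohorts, with means apart by 1.80, 3.82 and 2.16 TPM, and 0.991% of all genes tested were higher without overlap in all 3, with Tnpo2 and Tnpo3 among them. The average log2 difference of Tnpo3 was 0.08 (SE 0.027, 1.06-fold), with a limma p of 0.00721 before and 0.0998 after adjustment over all genes. The exact permutation test of Tnpo3 alone, within cohort, gave p = 0.00025, the smallest possible. No alternative fit or left-out library gave Tnpo3 an adjusted p under 0.05 for this difference (0.06 to 0.191).

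In mutants with the Hnrnph2 ASO, Tnpo3 was at 47.0, 45.7 and 44.6 TPM in P209L at 8 weeks, which overlapped with the control ASO group. It was at 42.0 and 45.4 TPM in P209L at 3 weeks and at 46.3, 46.7 and 44.2 TPM in R206W. These groups lay below their control ASO groups, but neither difference was called (log2 difference -0.104 and -0.0893, limma adjusted p = 0.868 and 0.7705). The share of all genes lower without overlap was not counted for these comparisons. With the ASO in WT of the R206W cohort that share was 7.99%. The average Tnpo3 difference in mutants was -0.07 (95% interval -0.12 to -0.01), with a limma adjusted p of 0.288 and an exact permutation p of 0.0065 for the gene alone. In WT mice the ASO gave an average of 0.03 (95% interval -0.03 to 0.08), not called.

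The tested genes next to each receptor on its chromosome were also examined. Of the 6 tested genes nearest to Tnpo2, only Asna1 was called in the average mutation effect, in which 2.55% of all genes were called higher and 1.73% lower. Asna1 (Get3 in RefSeq), an ATPase that delivers tail-anchored proteins to the endoplasmic reticulum, lies at 85017929 to 85025287 on chromosome 8, 11586 bases from Tnpo2. It was higher by 0.19 in mutants with the control ASO (SE 0.033, limma adjusted p = 0.000702) and lower by 0.18 with the Hnrnph2 ASO in mutants (log2 difference -0.18, adjusted p = 0.00225), a smaller change than that of Tnpo2 in the same directions. Within single cohorts it was not called (0.25 and 0.21 in the P209L cohorts at 8 and 3 weeks, and 0.11 in R206W). Trir, which lies between Asna1 and Tnpo2, gave -0.02, and Hook2, Fbxw9, A230103J11Rik and Gm5741 were not called. None of the 6 tested neighbours of Tnpo1 or of the 6 of Tnpo3 was called.

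Annotated genes overlap the receptors, and the strand setting of the authors' counting is not given in the sources used here. The long noncoding RNA A230103J11Rik shares 4426 bases with Tnpo2 and was at 3.06 to 5.03 TPM over the libraries, with a mutation difference of 0.00. Irf5, a transcription factor gene, shares 1043 bases with Tnpo3 and was at 1.89 to 3.32 TPM. Without strand, reads in such shared stretches cannot be told apart, and the levels of both partners were low beside those of Tnpo2 and Tnpo3. Tnpo1 and Tnpo2 are similar in sequence, and how reads that match both were divided is likewise not given.

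**Figure D3:**
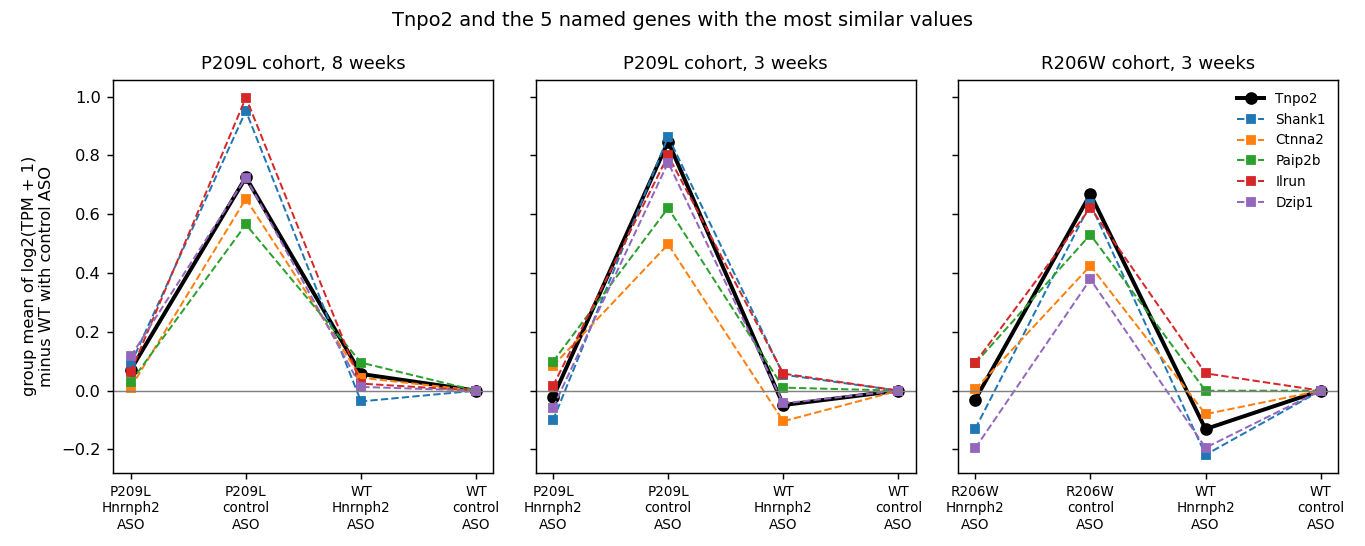
Group means of log2(TPM + 1) minus the WT control ASO group of the cohort, for Tnpo2 (black circles) and the 5 named genes with the most similar values over the 35 libraries. Each gene is highest in mutants with the control ASO, where the averages over the cohorts are 0.75 for Tnpo2 and 0.53 to 0.82 for the 5 genes.

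Likeness to a receptor was measured over the 35 libraries as the mean absolute difference between 2 genes in log2(TPM + 1), each taken relative to its mean in WT with the control ASO of the same cohort. The nearest named genes to Tnpo2 were Shank1 (0.0883), Ctnna2 (0.10), Paip2b (0.105), Ilrun (0.109) and Dzip1 (0.11), against 0.254 for a profile with no change. Shank1 encodes a postsynaptic scaffold protein and Ctnna2 the neuronal alpha-catenin. Paip2b encodes an inhibitor of translation that binds poly(A)-binding protein. As the plot of the 5 nearest profiles shows, all were higher in mutants with the control ASO (0.82, 0.53, 0.57, 0.81 and 0.63) and lower with the Hnrnph2 ASO in mutants (-0.86, -0.49, -0.50, -0.75 and -0.67). The points share their libraries, and the likeness rests on that difference between groups: relative to the mean of each group, the 5 nearest genes were others, with 0 of 5 shared. The 5 plotted genes were chosen for likeness to Tnpo2, so their shared direction is no separate result.

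Nearest to Tnpo1 were Dicer1 (0.0482), Lrrc58, Appbp2, Col4a3bp and Zfp462, of which none was called in the average mutation effect. For Tnpo3 they were Ddx47 (0.0389), Capzb, Ei24, Sgcb and Tbc1d22b, likewise not called. A profile with no change lay at 0.149 from Tnpo1 and at 0.0487 from Tnpo3. Of 16556 genes, 16 were closer to Tnpo3 than that flat profile, 5936 were closer to Tnpo1 and 3034 to Tnpo2.

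Cargoes and partners of the receptors were then counted in lists of the pathway, for the average difference between mutants and WT under the control ASO. Of 21 RNA-binding proteins carried by transportins 1 and 2, none was called higher and 1 was called lower, and 8 had an unadjusted p under 0.05, as had 3055 of all 16556 genes. Their median was -0.06 against 0.007 over all genes tested (2.55% of genes called higher, 1.73% lower). The 1 gene was Taf15, which encodes an RNA-binding protein, at -0.26 (SE 0.062, limma adjusted p = 0.0137), which was also lower with the Hnrnph2 ASO in WT (-0.37, adjusted p = 0.0044). Its mutation call was lost with the cerebellar markers as a covariate (adjusted p = 0.161). With the Hnrnph2 ASO in mutants, 1 of the 21 was called higher and 1 lower. Of all genes, 1.19% were called higher and 1.31% lower. The genes were Hnrnph1 (0.29), a close relative of Hnrnph2, and Hnrnph2 itself (-2.80), the target of the ASO. The 0.29 of Hnrnph1 is the average over the cohorts. Within single cohorts Hnrnph1 was not called in mutants (0.30 and 0.28 in P209L at 8 and 3 weeks, and 0.27 in R206W). In WT, Hnrnph1 was also higher with this ASO, by 0.36 at 8 weeks and by 0.26 in the R206W cohort, not called. In the P209L cohort at 3 weeks it was higher by 0.66 in WT and called (limma adjusted p = 0.0013).

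Among 15 cargoes of transportin 3, mainly splicing factors rich in serine and arginine, none was called higher and 1 lower. Of all genes, 1.73% were called lower. An unadjusted p under 0.05 was found for 3 of the 15, and their median was -0.06. The 1 called was Tra2b, a splicing regulator, at -0.12 (SE 0.033, limma adjusted p = 0.038). It stayed called in 8 of 18 fits that left out a library (adjusted p up to 0.0942). The call was lost with the cerebellar covariate (adjusted p = 0.271). None of the 15 was called with the Hnrnph2 ASO in mutants.

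Of 10 further receptors of the importin beta family none was called by limma and 1 had an unadjusted p under 0.05, with a median of 0.03 and a range of -0.10 to 0.16. None of 5 tested importin alpha adaptors, which link cargoes to importin beta, was called or had an unadjusted p under 0.05 (median -0.02). The Ran cycle, which sets the direction of transport, had none of 8 called and 1 with an unadjusted p under 0.05 (median -0.02). Of 7 exportins, Xpo7 alone was called, at 0.25 (SE 0.068, limma adjusted p = 0.0371), where 2.55% of genes were called higher. Xpo7 was lower with the Hnrnph2 ASO in mutants (-0.27, adjusted p = 0.0413), where 1.31% of genes were called lower. For Xpo7 that ASO call held in 5 of 17 fits that left out a library (adjusted p up to 0.0985). Its mutation call held in 7 of 18 fits that left out a library (adjusted p up to 0.0879) and was lost without the filter on low values (adjusted p = 0.0778) and with the cerebellar covariate (adjusted p = 0.0829).

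**Figure D4:**
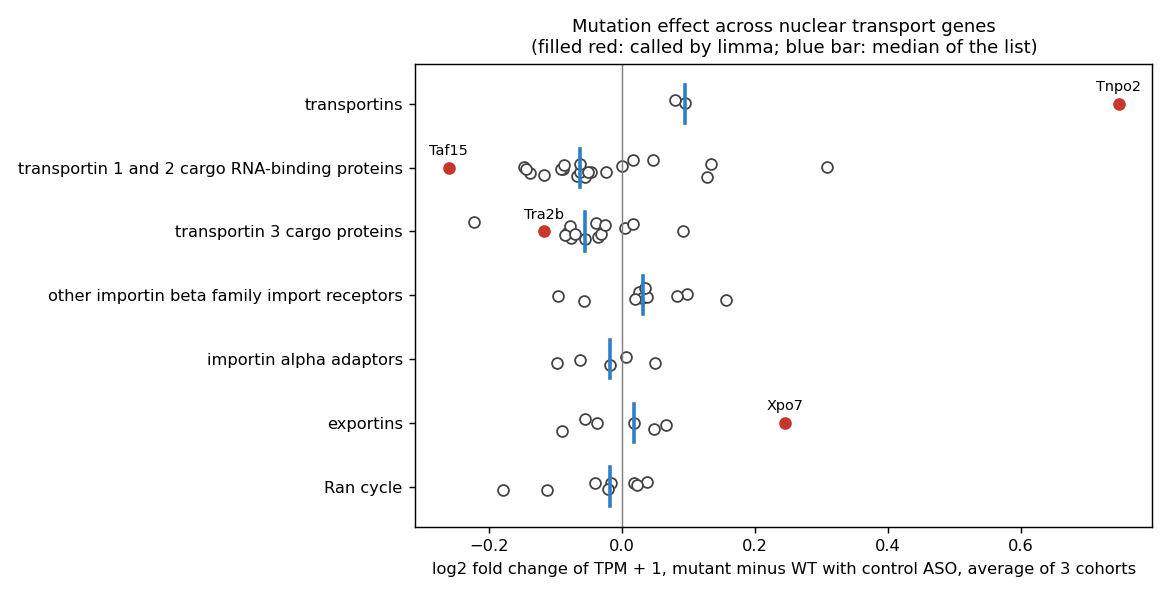
Average log2 difference between mutants and WT under the control ASO for each gene of the nuclear transport lists (rows), with 1 point per gene. Red points were called by limma and the blue bar is the median of the list; Tnpo2 stands at 0.75, while the other genes lie between -0.26 (Taf15) and 0.31.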

How the data were processed

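RNA was measured in 35 brain libraries of 12 groups. The authors deposited 1 table of TPM values with 55573 rows, and each of its columns belonged to a sample. The submitters' processing notes name STAR 2.7.1a, RSEM, Trim Galore, GATK 4.0.4.0 and the build mm10; annotation, filters and strand setting are not given in the sources used here. Per the labels, libraries were made with a stranded total RNA kit. TPM keeps no depth, and a fold change on a log2(TPM + 1) scale understates the change of low genes.

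Groups came from the labels, and the cohort of WT libraries at 3 weeks from the numbers of the libraries in their titles. Genes averaging 1 TPM or more were tested with limma 3.58.1 in R 4.3.3 (trend, two-sided), within a cohort on its 4 groups, and on all 35 libraries with 12 group means for averages, age and differences between cohorts, with Benjamini-Hochberg adjustment per contrast. Permutation tests were exact and two-sided. The scripts were tested on simulated data. The members, gene lists and tests were chosen with earlier results of these data known, and a list is described by counts and its median. By rule, the receptors, their 3 nearest tested genes on each side, the 5 most similar named genes and called list members were named. Coordinates are those of RefSeq on GRCm38.p6, the same build. Alternatives were a pseudocount of 0.1, no filter or a minimum of 5 TPM, median-ratio rescaling, the replicate number as a block, only the compared groups, the cerebellar markers as a covariate, and leaving out each library.

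Replicate numbers are shared between groups, but no label ties them to an animal or litter. In the R206W cohort, Tnpo1 fell from the first to the third library within every group (20.6, 16.8 and 15.9 TPM in WT with the control ASO). Its intervals and group overlaps above do not take the replicate number into account. Deviations from group means were correlated over 0.1 for all 3 pairs of equal number in 1 comparison, treated P209L against control WT at 8 weeks (lowest 0.125). For treated R206W against control WT the correlations were 0.099 to 0.193. The values given for both comparisons are from the fit without the block and do not use the pairs. With the block, the Tnpo2 difference in treated P209L against control WT at 8 weeks had an SE of 0.0956, against 0.107 without. No receptor was called there in either fit.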

Additional observations from a re-analysis of the deposited data

Results flagged for a closer look

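The response of Tnpo2 to the Hnrnph2 ASO differed between genotypes by a test of the difference itself. The ASO effect in mutants minus that in WT was -0.7006 log2 units in the average over the cohorts, -0.8213 in P209L at 3 weeks and -0.5687 in R206W (limma adjusted p = 2.56e-07, 0.0309 and 0.0287). It was -0.71 in P209L at 8 weeks, which did not pass (adjusted p = 0.581). In mutants, 8 of 8 libraries with the Hnrnph2 ASO lay below those with the control ASO. Without overlap in all 3 cohorts, 0.791% of all genes were lower. No test of Tnpo1 or Tnpo3 passed for this difference (average -0.14 and -0.09, adjusted p = 0.855 and 0.641). Mean Hnrnph2 under its ASO was lower in mutants than in WT of each cohort, and its part in the Tnpo2 difference was not tested.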

How the results depend on the processing

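Averaged over the cohorts, the Tnpo2 calls (mutation under the control ASO, ASO in mutants, and the difference of ASO effects) kept direction and call under each alternative and without any 1 of the compared libraries, as did the mutation and ASO calls of P209L at 3 weeks and R206W. At 8 weeks the mutation call was lost without a filter and with the compared groups only (0.7257 in both), and ranged over 0.615 to 0.832 with libraries left out. The ASO difference in P209L at 8 weeks became a call with a minimum of 5 TPM and with the compared groups only (-0.655 in both) and with rescaled TPM (-0.658). With libraries left out, the difference of ASO effects ranged over -0.881 to -0.775 in P209L at 3 weeks and -0.594 to -0.540 in R206W. The count of genes called for the average mutation effect was 708, against 303 with the cerebellar covariate and 482 to 1164 with libraries left out (highest without the third WT library with the control ASO at 8 weeks). At 8 weeks that count was 28, against 2 with the compared groups only and 5 to 84 with libraries left out, and in R206W it was 22, against 2 with the compared groups only and 210 with the replicate block. For treated R206W against control WT the count was 3, against 236 with the replicate block. The count for treated mutants against control WT, on average, was 799, against 230 with the covariate and 223 without the second P209L library with the Hnrnph2 ASO at 3 weeks. The average ASO count in mutants (414) was also lowest without that library. The average mutation count under the Hnrnph2 ASO was 111, against 38 with the covariate and, with libraries left out, 21 (without that library) to 303 (without the third WT library with the Hnrnph2 ASO of the P209L cohort at 3 weeks). The age counts with the control ASO were 1696 in P209L, against 905 to 1391 with libraries left out (lowest without the first 3-week P209L library), and 1891 in WT, against 998 to 2963 (without the second and without the third 8-week WT library). The causes were not tested. The depth is unknown, so the part of counting error in these spreads cannot be given.

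The main fits did not take replicate numbers as pairs, and the block was an alternative only. With the replicate block, the difference of ASO effects for Tnpo2 in P209L at 3 weeks was -0.849 and no longer called (adjusted p = 0.0825). Of the uncalled values, treated mutants against control WT turned to -0.00352 on average, and mutation under the Hnrnph2 ASO in P209L at 3 weeks to -0.0014. The block changed no other call of the receptors.

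Some values that were not called in any fit changed sign. Rescaled TPM turned Tnpo2 in treated mutants against control WT, on average, to -0.00558, and the cerebellar covariate to -0.0137. The covariate turned the average mutation effect under the Hnrnph2 ASO to 0.0334 for Tnpo1 and 0.00169 for Tnpo3. Rescaling gave 0.00137 for the mean age effect of Tnpo1, and for Tnpo3 gave -0.0332 (ASO in WT) and 0.0282 (difference of ASO effects) at 8 weeks and 0.00255 (ASO in WT) in R206W.

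Leaving out 1 library at a time moved other small values of the receptors across 0, none of them called. For Tnpo2 the ASO difference in WT ranged over -0.0538 to 0.163 in P209L at 8 weeks and -0.0952 to 0.0106 at 3 weeks, and the mutation difference under the Hnrnph2 ASO over -0.0641 to 0.062 and -0.019 to 0.0705. Treated mutants against control WT gave -0.0400 to 0.177 in P209L at 8 weeks, -0.0694 to 0.0363 at 3 weeks and -0.0313 to 0.0408 on average.

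For Tnpo1 the mutation difference under the control ASO ranged over -0.0439 to 0.15 in R206W. Its ASO difference in WT ranged over -0.006005 to 0.217 in P209L at 8 weeks and -0.0531 to 0.125 in R206W. In mutants it was -0.212 to 0.0457 in P209L at 8 weeks, -0.075 to 0.101 at 3 weeks, -0.054 to 0.0955 in R206W and -0.0603 to 0.0257 on average. Mutation under the Hnrnph2 ASO gave -0.202 to 0.0567 in P209L at 8 weeks, -0.196 to 0.023 at 3 weeks and -0.0427 to 0.104 in R206W. Treated mutants against control WT gave -0.0727 to 0.192 in P209L at 8 weeks and -0.021 to 0.157 in R206W, and the difference of ASO effects -0.118 to 0.076 in R206W.

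For Tnpo3 the ASO difference in WT ranged over -0.00218 to 0.0143 in P209L at 8 weeks and -0.0584 to 0.037 in R206W, and in mutants over -0.0214 to 0.016 in P209L at 8 weeks. Mutation under the Hnrnph2 ASO gave -0.0622 to 0.0332 in R206W and -0.0297 to 0.0074 on average. Treated mutants against control WT gave -0.0402 to 0.0712 in P209L at 3 weeks and -0.00375 to 0.0334 on average. The difference of ASO effects gave -0.0302 to 0.00728 in P209L at 8 weeks, and the mean age effect -0.0126 to 0.0152.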
